A study of Caenorhabditis elegans with 4 samples.

Results

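Intraflagellar transport builds and maintains cilia, the microtubule-based projections that in Caenorhabditis elegans are found only on sensory neurons. Kinesin-2 motors carry particles made of an IFT-B and an IFT-A complex out along the cilium, and a dynein-2 motor carries them back to its base. Worms that lack these proteins have short or missing cilia and fail to follow chemicals (che, for chemotaxis) or to avoid high osmotic strength (osm), which gave the genes their names. Transcripts of 8 such genes, che-2, che-3, che-11, che-13, osm-1, osm-3, osm-5 and osm-6, were followed in second-stage (L2) larvae. They were found by gene symbol in the platform's annotation, on probes assigned to a single gene: 9 probes for 8 genes, out of 21632 probes and 14943 named genes on the array. Each gene had 1 probe except osm-6, which had 2.

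RNA of 4 preparations of wild-type L2 larvae (preps 1 to 4) was hybridised on 2-colour arrays, 1 array per prep, each against a mixed wild-type reference RNA. The labels give neither a strain beyond wild type, nor culture conditions, nor what was mixed in the reference. Each value is a log2 ratio, with each array's median set to 0. Per the labels, channel 1 held the reference and channel 2 the larvae, and the dyes are not named, so a positive value is read as likely higher in L2. Every direction below rests on that reading, which gives the yolk receptor gene of oocytes, rme-2, a mean of -3.47 in larvae that have no oocytes. Whole larvae were used, so fewer ciliated neurons and less RNA per neuron cannot be told apart. Spot intensities were not used here, so whether the probes stood well above background was not tested.

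The means of all 8 genes lay close to the reference. None had an adjusted p under 0.05 in limma, against 14.7% of the 19941 features tested (4.85% higher and 9.87% lower in L2). At an unadjusted p under 0.05 there was 1 gene, osm-3, which encodes a kinesin-2 motor, beside 32.3% of all features. The same 32.3% is the background for each count at an unadjusted p given below. The means of the 8 genes ran from -0.25 (che-13) to 0.40 (osm-3), 3 above and 5 below 0, with a median of -0.08 beside 0.01 for all features. Of the 32 values, 1 per gene and prep with the 2 osm-6 probes averaged, 30 were under 0.5 in size. On its own, osm-6 probe 2800939 reached -1.17 in prep 1. The share of such values over all features was not computed. The smallest mean among the features past the threshold was 0.55 in size, larger than that of each of the 8 genes, and 58.6% of all features had a mean no larger in size than osm-3. The 95% confidence interval of each of the 8 means, from limma's moderated variance and for each gene alone, lay within a 2-fold change in either direction. Over all features 66.9% of intervals did so. For 4 of them (osm-5, osm-1, che-2 and che-11) the interval also lay within 1.5-fold, as for 22.6% of all features.

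**Figure D1:**
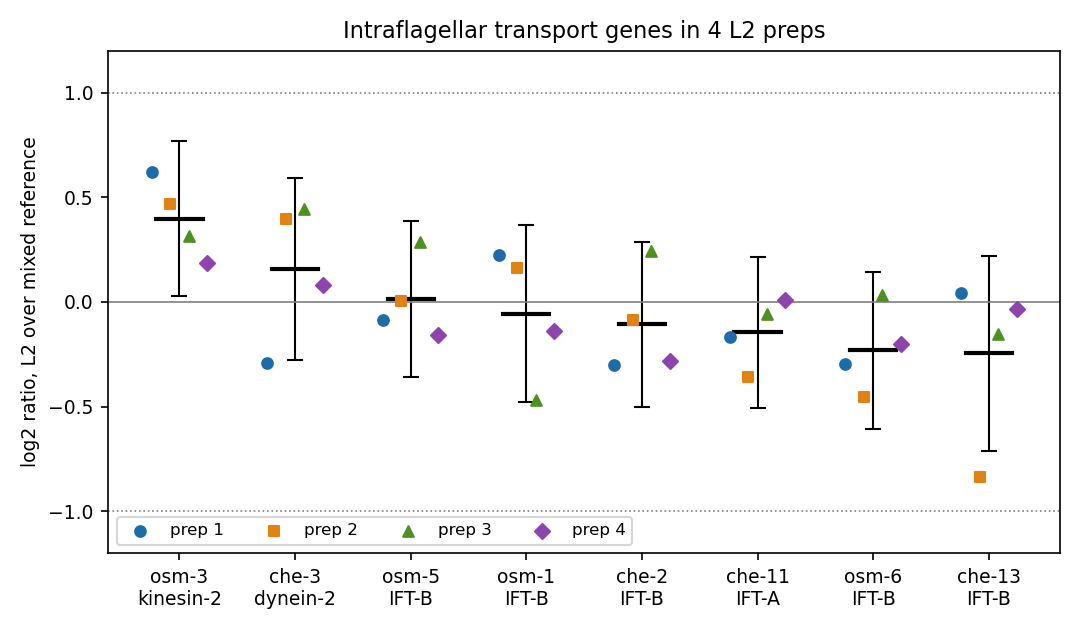
Log2 ratio of L2 over the mixed reference (vertical axis) for each of the 8 intraflagellar transport genes (horizontal axis, ordered by mean), with 1 marker per prep. Thick bars are means, whiskers 95% confidence intervals and dotted lines a 2-fold change; all whiskers lie between the dotted lines, and only osm-3 has all 4 markers above 0.

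The IFT-B genes encode subunits of the complex that travels with kinesin-2. For osm-5, the counterpart of IFT88, the log2 ratios were -0.09, 0.01, 0.29 and -0.16 in preps 1 to 4. Prep 3 was the highest, and the values lay on both sides of 0. The mean was 0.01 ± 0.20 (SD, n = 4; limma, adjusted p = 0.961), which is also the median of all features. The interval ran from -0.36 to 0.39, so changes of more than 1.28-fold down or 1.31-fold up lie outside it.

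osm-1, the counterpart of IFT172, had ratios of 0.22, 0.16, -0.47 and -0.14. Preps 1 and 2 were above 0 and preps 3 and 4 below it. The mean was -0.06 ± 0.32 (SD, n = 4; limma, adjusted p = 0.846). By their titles the arrays fall in 2 calendar months, which part the same preps: the means were 0.19 for preps 1 and 2 and -0.30 for preps 3 and 4. With 2 arrays each this was given no test, and the part of the month was not tested. Leaving out prep 3, the lowest, turned the sign of the osm-1 mean to 0.08.

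The ratios of che-2, the counterpart of IFT80, were -0.30, -0.09, 0.24 and -0.28. Prep 3 alone was above 0. The mean was -0.11 ± 0.25 (SD, n = 4; limma, adjusted p = 0.681), with -0.22 without prep 3 and -0.04 without prep 1. che-13, the counterpart of IFT57, was at 0.04, -0.83, -0.16 and -0.03. So 3 preps lay near 0, and prep 2 held the lowest of the 32 values per gene and prep. Its mean, -0.25 ± 0.40 (SD, n = 4; limma, adjusted p = 0.415), was the lowest of the 8 genes and came with the largest SD. Without prep 2 it was -0.05, and without each of the other preps between -0.34 and -0.27.

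osm-6, the counterpart of IFT52, was measured by 2 probes that went apart. Probe 2785335 gave 0.58, -0.14, 0.25 and 0.15 in preps 1 to 4, with a mean of 0.21 ± 0.30 (SD, n = 4). Probe 2800939 gave -1.17, -0.77, -0.19 and -0.55, all below 0, with a mean of -0.67 ± 0.41 (SD, n = 4). The first probe was above the second in 4 of 4 preps, by 1.76, 0.63, 0.44 and 0.70. The mean difference was 0.88 ± 0.59 (SD), and an exact two-sided sign-flip test over the 4 preps gave p = 0.125, the smallest value that 4 preps allow. Among 1324 genes with 2 probes on all 4 arrays, 27.9% had the same probe higher in all 4 preps, 9.06% had a difference in means at least as large as that of osm-6, and the median difference was 0.25. In a fit on single probes neither passed the threshold (limma, adjusted p = 0.435 and 0.0696), and the interval of the second probe, -1.15 to -0.20, reached past a 2-fold decrease. Averaged per array, the gene was at -0.30, -0.45, 0.03 and -0.20, with a mean of -0.23 ± 0.20 (SD, n = 4; limma, adjusted p = 0.347). The averaged mean and its interval therefore stand for values of opposite sign.

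**Figure D2:**
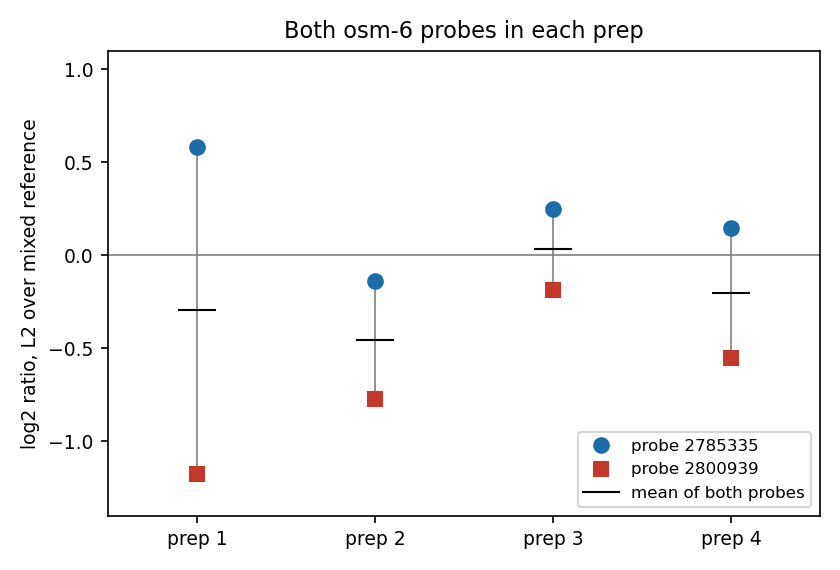
Log2 ratio of L2 over the mixed reference (vertical axis) for both osm-6 probes in each of the 4 preps (horizontal axis); circles are probe 2785335, squares probe 2800939 and dashes their mean, with no error bars since each marker is 1 array. The squares lie below 0 and below the circles in all 4 preps, by 0.44 to 1.76.

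IFT-A, which is needed for the return journey, was represented by che-11, the counterpart of IFT140. Its ratios were -0.17, -0.36, -0.06 and 0.01. They held the smallest SD of the 8 genes, with 3 preps below 0 and prep 4 at 0.01. The mean was -0.14 ± 0.16 (SD, n = 4; limma, adjusted p = 0.536), with an interval of -0.51 to 0.22.

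Both motor genes had means above 0. osm-3 encodes the homodimeric kinesin-2, which extends the outer segment of the cilium. Its ratios were 0.62, 0.47, 0.31 and 0.19, above 0 in 4 of 4 preps, as for 20.1% of all features with 4 values. By array month the means were 0.54 for preps 1 and 2 and 0.25 for preps 3 and 4, and the part of the month was not tested. The mean of osm-3 over all 4 preps was 0.40 ± 0.19 (SD, n = 4), or 1.32-fold, with an interval of 0.03 to 0.77. Its unadjusted p was 0.0388 and its adjusted p = 0.132 (limma), so the difference did not pass the threshold, and the adjusted p stayed between 0.0914 and 1 in all alternatives tried. che-3 encodes the heavy chain of the dynein-2 motor. Its ratios were -0.29, 0.40, 0.45 and 0.08, with prep 1 alone below 0. The mean was 0.16 ± 0.34 (SD, n = 4; limma, adjusted p = 0.578), with 0.31 without prep 1 and 0.06 without prep 3.

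In order of their means the genes ran osm-3, che-3, osm-5, osm-1, che-2, che-11, osm-6 and che-13. In none of the 7 neighbouring pairs was the same gene higher in all 4 preps. osm-3 was above 6 of the other 7 genes in every prep, and below che-3 in prep 3. Its distance from the lowest gene, che-13, was 0.64 ± 0.47 (SD of the paired differences, n = 4; exact sign-flip test, p = 0.125), and no pair of the 28 can reach a smaller p with 4 preps. In each neighbouring pair the mean difference was smaller than the SD of the paired differences, so the order of neighbours was not settled.

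No prep held all 8 genes on the same side of 0. The median of the 8 genes was -0.13, -0.04, 0.14 and -0.09 in preps 1 to 4, and 3, 4, 5 and 3 of them were above 0. Prep 3 held the highest value of 4 genes (che-2, che-3, osm-5 and osm-6) and the lowest of osm-1. The SDs between preps ran from 0.16 to 0.40, with a median of 0.23 beside 0.37 for all features. No value of the 8 genes stood apart from its other 3 preps by Dixon's criterion.

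**Figure D3:**
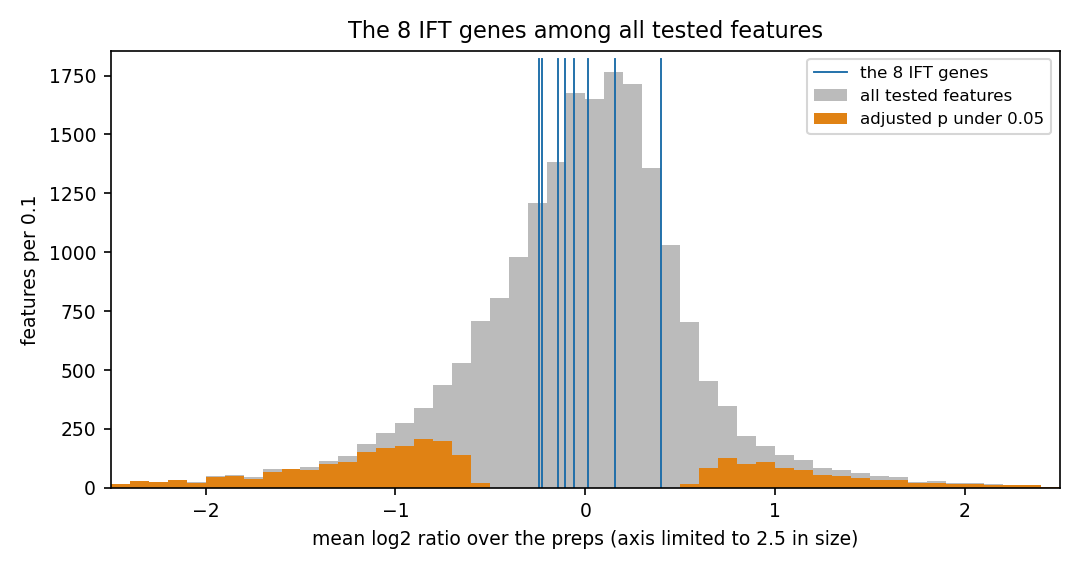
Number of features per 0.1 (vertical axis) by mean log2 ratio over the preps (horizontal axis, limited to 2.5 in size), for all 19941 features tested (grey) and the 2936 with an adjusted p under 0.05 (orange). The 8 vertical lines are the intraflagellar transport genes, from -0.25 to 0.40, all in the central stretch without orange, which starts at 0.55 in size.

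The other genes of the transport machinery were close to the reference as well. Of 12 measured genes for other subunits of the IFT-A and IFT-B particles, 0 passed the threshold and 0 had an unadjusted p under 0.05 (limma). Their median was 0.12, and the largest mean was that of daf-10, an IFT-A subunit, whose ratios of 1.09, 0.24, 0.21 and 0.04 averaged 0.40 ± 0.47 (SD, n = 4). The high value was that of prep 1, and without it the mean was 0.16. Of 4 other motor genes 0 passed and 0 had an unadjusted p under 0.05, with a median of 0.07 and with dylt-2, a dynein light chain gene, at 0.28 ± 0.34 (SD, n = 4; 0.12 without prep 3). The second kinesin-2 of these cilia is heterotrimeric. Its measured subunit genes were klp-11, a motor subunit, at a mean of 0.04, and kap-1, the associated subunit, at -0.20, beside 0.40 for osm-3, a difference that was not tested.

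Genes of structures that work with the transport particles were read next. Of 6 genes of the BBSome, the cargo adaptor of the cilium, and its small GTPase, 0 passed the threshold (1 at an unadjusted p under 0.05; limma). The median was -0.16, but it ran from -0.57 in prep 2 to 0.35 in prep 3, and was -0.01 without prep 2. It was -0.37 without prep 3 and -0.28 without prep 4, over 5 genes, since a gene without a value in prep 2 then had too few arrays. Over the 5 genes with values in all 4 preps the median was -0.20. The largest BBSome mean in size, bbs-2 at 0.40 ± 0.79 (SD, n = 4), held 1.56 in prep 3 against -0.11, 0.21 and -0.07 in the others, and was 0.01 without prep 3. Of 12 genes of the transition zone, the gate at the base of the cilium, 0 passed and 0 had an unadjusted p under 0.05, with mks-6 at -0.28 ± 0.34 (SD, n = 4). Their median was -0.01, and -0.13 without prep 3 and 0.16 without prep 2, in both cases over the 11 genes still tested.

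Among 9 genes of cilia formation and its control, 0 passed (1 at an unadjusted p under 0.05; limma), with a median of 0.08. The transcription factor gene daf-19, whose product switches on transport genes through a promoter element called the X-box, was at 0.09, -0.14, -0.32 and 0.23, a mean of -0.04 ± 0.24 (SD, n = 4; limma, adjusted p = 0.893). Its values lay on both sides of 0, as those of most of the 8 genes did. This is common on the array, where 42.8% of features with 4 values kept the same sign in all 4 preps. The largest mean was that of dyf-19, a gene for a protein at the ciliary base. Its ratios were 1.12, 0.64, 0.31 and 0.48, above 0 in 4 of 4 preps, with a mean of 0.64 ± 0.35 (SD, n = 4; limma, adjusted p = 0.0629). It passed the threshold with mean centring (adjusted p = 0.0472), array weights (0.031), the month as a random block (0.0457) and run centring, in which probes next to each other in order of probe ID are centred together (0.0211). Calls over all features also rose, from 2936 to 3794 with the month as a random block and to 4218 with array weights. The estimated correlation within a month was negative, -0.133.

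The genes past the threshold among the cilia lists were 2, both lower in L2. One was ccpp-1, the gene of an enzyme that trims glutamate chains from ciliary tubulin, at -1.47, -1.37, -1.44 and -0.86. All 4 preps were low, prep 4 the least. Its mean was -1.28 ± 0.29 (SD, n = 4), or 2.43-fold lower (limma, adjusted p = 0.00563), and against a fold of 1.5 its call ended (adjusted p = 0.0671). The other 4 measured genes of ciliary tubulin had means from -0.14 to 0.09. The other call was odr-10, the diacetyl receptor gene of an olfactory neuron pair, at -0.54, -0.83, -0.64 and -0.75, which differed little between preps. Its mean was -0.69 ± 0.13 (SD, n = 4), or 1.61-fold lower (limma, adjusted p = 0.0272). The call of odr-10 ended without prep 1, 2 or 4 (adjusted p = 0.0873, 0.102 and 0.0999), with run centring (0.053) and against a fold of 1.5 (adjusted p = 1). It was the only call among 14 genes of ciliary signalling (3 at an unadjusted p under 0.05, all lower; limma), whose median was -0.04. All 7 of these cilia lists together held 62 measured genes with 0 higher and 2 lower, 3.23% beside the 14.7% of all features, and a median of 0.04.

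Other che and osm genes, and dyf-7 (dyf, for defective dye filling of sensory neurons), that work outside intraflagellar transport gave 0 calls among 9 measured (1 at an unadjusted p under 0.05; limma), with a median of 0.04. They spread more widely than the 8 genes, from -0.91 to 0.51. At the low end was osm-11, a secreted ligand gene of the Notch pathway, at -0.46, -0.55, -1.98 and -0.67 (limma, adjusted p = 0.0719), with prep 3 apart from the others. At the high end was osm-8, with a mean of 0.51. Without prep 3, osm-7 and osm-8, both genes of the epidermal response to osmotic strength, passed the threshold (means 0.68 and 0.81; limma, adjusted p = 0.0354 and 0.0495).

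Markers of neurons and of other tissues were read beside these values. Of 18 genes listed as markers of neurons in general 0 passed (4 at an unadjusted p under 0.05; limma). Their median was -0.17, from -0.93 for the neuropeptide-processing gene egl-21 to 0.31 for unc-10, and the medians by prep were -0.20, -0.29, -0.37 and 0.03. The value of egl-21 was -1.93 in prep 3, and its mean without that prep was -0.60. In alternatives egl-21 passed with scale normalization (adjusted p = 0.0462) and with the month as a random block (0.0435), and snb-1, a gene of synaptic vesicles, with run centring (0.0386), all as lower. Marker genes of touch receptor neurons, which carry no cilia, had means from -0.40 (mec-3) and -0.39 (mec-2) to 0.94 (mec-7) and a median of 0.22. Of these 8 genes 2 passed, both as higher: the tubulin gene mec-7 at 0.94 ± 0.23 and mec-18 at 0.57 ± 0.13 (SD, n = 4; limma, adjusted p = 0.0128 and 0.0482). Both calls ended without prep 1, 2 or 4 (adjusted p from 0.0508 to 0.0623 for mec-7 and from 0.107 to 0.169 for mec-18) and against a fold of 1.5. That of mec-18 also ended without prep 3 (adjusted p = 0.0717) and with run centring (0.113). The tubulin gene mec-12, at 0.83 (adjusted p = 0.0604), passed without prep 3 (0.016), with array weights (0.0134), with mean centring (0.0477) and with the month as a random block (0.0412).

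In contrast, germ line markers were low, with 8 of 13 lower and a median of -0.95 (glp-1, gld-1, pgl-3, htp-1, him-3, rme-2, puf-8 and oma-1, with means from -3.47 to -0.90). The means of those not past the threshold ran from -0.89 (mex-3) to -0.04 (fbf-2). Among these, glh-1 was at 0.65, 0.12, -1.89 and 0.12, below 0 in prep 3 alone. Of all features 9.87% were lower and 4.85% higher, which is the background for the marker counts here. Body wall muscle markers had 5 of 8 higher and a median of 1.46 (myo-3, unc-22, mup-2, tnt-2 and unc-27), and intestine markers 5 of 10 higher and a median of 0.93 (ges-1, cpr-5, ifb-2, act-5 and pept-1). The intestine means ran from -0.42 (elt-7, with -2.04 in prep 2) to 3.22 (cpr-5). Those of cpr-1 (-0.20) and asp-1 (-0.06) were also below 0. Without preps 1, 2, 3 and 4 the counts were 5, 5, 7 and 7 for germ line, 3, 3, 8 and 4 for muscle and 3, 3, 6 and 4 for intestine. Calls over all features moved too. Leaving out 1 prep gave 872 to 1840 lower against 1968, and 285 to 1362 higher against 968. In prep 3 the median of the muscle markers was 0.57, against 1.56 to 1.75 in the others, and unc-54, unc-15 and act-4 were at -0.69, -0.79 and -0.46 there. Whether these marker ratios come from tissue makeup or from RNA per cell was not tested, nor was the part of either in the ratios of the cilia genes.

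**Figure D4:**
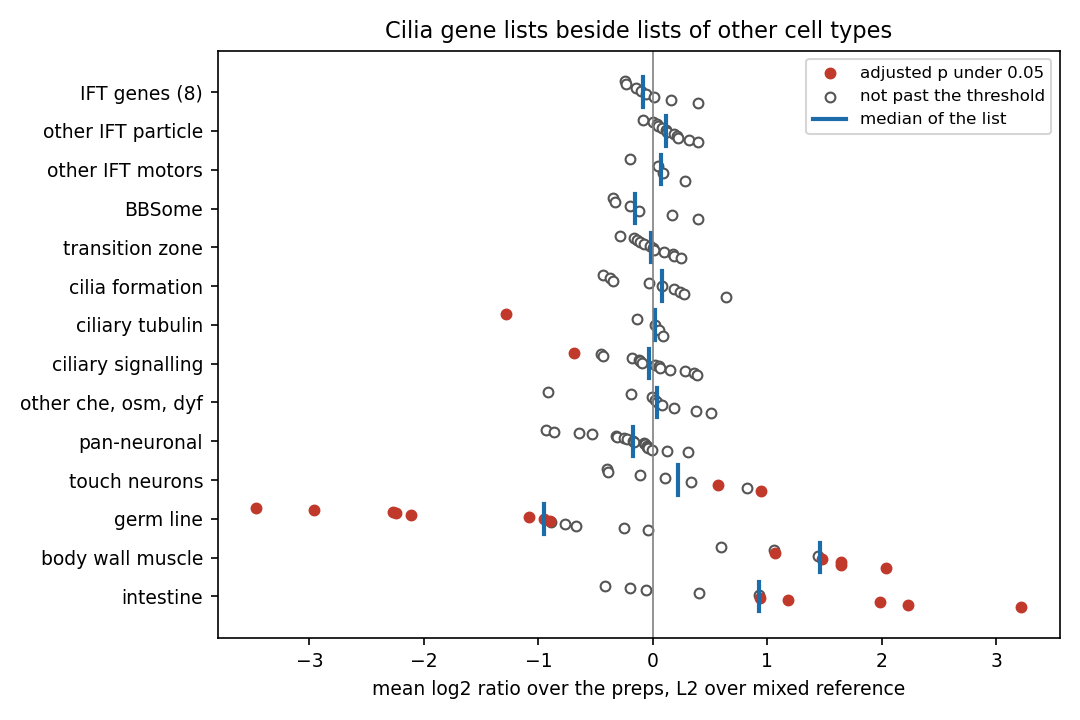
Mean log2 ratio over the preps (horizontal axis) of each measured gene of the 8 intraflagellar transport genes and of 13 other lists (rows); filled red points have an adjusted p under 0.05, open points do not, and blue bars are list medians. The 8 genes and the 7 other cilia lists have medians between -0.16 and 0.12, against -0.95 for germ line and 1.46 for body wall muscle markers. Without 1 prep the cilia medians ran from -0.37 (BBSome, over 5 genes still tested) to 0.17.

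The genes whose values over the 4 preps were nearest to the mean profile of the 8 genes (-0.03, -0.09, 0.08 and -0.07) were ztf-26, sri-10, mtx-1, F28C1.1 and srbc-52. Their root mean square differences from it ran from 0.029 to 0.052 on the log2 scale, among 14503 named genes with 4 values. The 8 genes themselves lay 0.126 (osm-5) to 0.462 (osm-3) from their own mean profile. Of the other genes, 182 were nearer to it than osm-5 was, and 42.4% were nearer than osm-3 was, so nearness to this profile is shared by a large part of the array.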

How the data were processed

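The authors deposited log2 ratios, 1 column per array, in a value table. The base was settled numerically: read as powers of 2, 100% of the ratios below 0.9 on each array were whole thousandths (tolerance 0.05). How background, normalization and dim spots were treated is not stated in the labels. The deposited log2 medians were 0.0158, 0.0580, 0.0552 and 0.0186 for preps 1 to 4, so centring is known only from the values, and the direction only from the channel order. Between 21209 and 21386 of 21632 probes had a value per array.

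Each array was centred on its median and probes of 1 gene were averaged. By gene ID, 16360 of the 16450 probes with 1 gene matched a newer table (WBcel235), with 0 changed symbols. Features on at least 3 arrays were tested as the mean against 0, two-sided, with limma 3.58.1 in R 4.3.3 (lmFit, eBayes) and Benjamini-Hochberg adjustment over all 19941, at a threshold of 0.05. This leaves out the spread of the reference. Separate cultures are not named in the labels, so p-values reflect only the spread between these preps, which may be technical. Their number, 4, limits the precision. On simulated data for this comparison (19941 features), 0% of changes of 0.5, 34% of 1, 86% of 2 and 96% of 4 on the log2 scale were recovered, with 6 false calls among 114. Far fewer features were changed in the simulation than passed in the data (2936), which makes the adjusted threshold stricter there. Its shares are therefore not the power of the comparison on the real data.

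The 8 genes and all lists were chosen with earlier results of these data known. Named were the 8 genes and, per list, each gene past the threshold or, with none, the gene with the largest mean in size. Others (daf-19, klp-11, kap-1, osm-7, osm-8, unc-10, mec-2, mec-3, mec-12, snb-1, dyf-7, unc-54, unc-15, act-4, elt-7, cpr-1, asp-1, mex-3, fbf-2, glh-1) were named after their values were seen. The grounds were their role, the end of a range, a mean of the other sign than most of their list, a call in an alternative or their value in prep 3. Alternatives were a robust fit, array weights, other centrings and normalizations, single probes, other minimum numbers of arrays, removal of ratios above 6 in size, a fold of 1.5 as the null, the month as a random block, centring in 32 runs of 676 probes in order of probe ID, and leaving out each prep. Positions on the array were not used for the runs. Tables and figures used Python 3.11.15, pandas 2.3.3 and matplotlib 3.10.9.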

Additional observations from a re-analysis of the deposited data

Results flagged for a closer look

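Among 39 sets of 4 values (the 8 genes, both osm-6 probes and the other named genes), 3 held a prep whose gap to the nearest of the others, as a share of the range, was above Dixon's 95% critical value. None was among the 8 intraflagellar transport genes. Chance flags about 1 in 20 sets. For ccpp-1 the value was that of prep 4, at -0.86 against -1.47 to -1.37 in the others. For osm-11 it was that of prep 3, at -1.98 against -0.67 to -0.46. For myo-3 it was also that of prep 3, at 0.47 against 2.38 to 2.77.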

How the results depend on the processing

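Under all 17 alternatives 0 of the 8 genes passed the threshold, also on single probes. Signs of means near 0 turned: osm-5 to -0.0117 with scale and -0.016 with quantile normalization, -0.0534 with array weights and -0.0937 with run centring, osm-1 to 0.0066 with mean centring and 0.0119 with array weights, and osm-6 to 0.21 on its probe 2785335. Leaving out 1 prep gave osm-5 a mean of -0.0782 (without prep 3) to 0.0701 and osm-1 a mean of -0.15 to 0.0813 (without prep 3). Over all features 652 passed against a fold of 1.5 (149 higher, 503 lower), 1679 rose with array weights, and leaving out 1 prep gave 1157 to 3202 calls, 285 to 1362 higher and 872 to 1840 lower. Of the 62 other cilia genes 1 rose with mean centring, array weights, the month as a block or run centring, 0 fell against a fold of 1.5, 1 fell with run centring, and 1 to 2 fell without 1 prep. Of 466 values of the 29 other named genes, 417 kept their side of the threshold, 43 lost and 6 gained it, and 0 changed sign. The cause of these shifts was not tested. No paired analysis was possible because all 4 samples form 1 group. No intensities were used, so what signal over background limits was not tested.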
